A study of Rattus norvegicus with 16 samples.

Results

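The genes described here are 10 regulators of transcription in the heart. They are the GATA factors Gata4 and Gata6, the homeobox factors Nkx2-5 and Irx4, the T-box factor Tbx5, the basic helix-loop-helix factor Hand2, the MADS-box factors Mef2a and Mef2c, and the GATA cofactors Zfpm1 (FOG-1) and Zfpm2 (FOG-2). Every probe set that the platform annotation assigns to 1 of these symbols alone was taken, which gave 13 probe sets of 8 genes, among 15866 probe sets tested and 10411 genes named by them. Mef2a and Zfpm2 have no such probe set and are not described further. Gata4, Gata6, Hand2, Mef2c and Zfpm1 each have 2 probe sets, called the brighter and the dimmer by their mean signal over the arrays. Nkx2-5, Tbx5 and Irx4 each have 1.

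Total RNA of the left ventricle was hybridized to Affymetrix Rat 230A arrays, for male rats aged 12 to 14 weeks. The spontaneously hypertensive (SH) rat develops high blood pressure, and the Wistar Kyoto (WKY) rat is the normotensive strain it is compared with. Rats of each strain breathed clean air or diesel exhaust (DE) at 2.0 mg/m3 in whole-body chambers on 5 days a week for 4 weeks, for 6 h a day in the sample labels and for a shorter day in the methods of the study. The groups are named WKY-air and WKY-DE, and SH-air and SH-DE, with 4 arrays each and 16 in all, described by the submitters as biological replicates. The comparisons show what DE did in each strain, how the strains differed without and with DE, and whether the DE effects of the strains differed.

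These factors bind DNA at the control regions of contractile, ion channel and natriuretic peptide genes and act in combination, so that GATA4, NKX2-5, TBX5, HAND2 and MEF2C form complexes on shared enhancers. In the embryo they direct the growth and patterning of the heart chambers, and in the adult ventricle they maintain the muscle program and take part in the response to load. FOG proteins do not bind DNA themselves but attach to GATA factors and turn their activity up or down. IRX4 is known as a ventricular factor that holds atrial genes down in the ventricle, while TBX5 is known for its part in septation and in the conduction system.

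Signals are MAS5 intensities on a linear scale, and differences are given on the scale log2(signal + 16.1), where 16.1 is the 10th percentile of all values, so that a difference between dim signals is damped. The sign is that of the first group named minus the second. A call required an adjusted p under 0.05 (Benjamini-Hochberg) and also an unadjusted p under 0.01, in a limma model of all 16 arrays. Signals of different probe sets cannot be set against each other. In whole tissue, fewer cells of a type and less RNA per cell cannot be told apart.

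The arrays carried the signal of ventricular muscle, since the ventricular light chain Myl2 lay between 27749 and 60897 and Myl3 between 21228 and 46217 on the 16 arrays. Atrial muscle transcripts differed between arrays of the same group. The atrial light chain Myl7 had signals of 25946, 4415, 11451 and 9718 for WKY-air, 657, 404, 9630 and 2927 for WKY-DE, 33.5, 154, 33.4 and 75.0 for SH-air and 94.2, 1443, 7876 and 187 for SH-DE. Of 12 atrial markers 11 are on the array, and their summed signal ran from 50954 to 123480 for WKY-air, 24747 to 57179 for WKY-DE, 26199 to 38816 for SH-air and 24676 to 46777 for SH-DE. Such a sum follows its brightest probe sets, among them Pam with a mean of 12758 in SH-air, where that of Myl7 was 73.9. By limma 5 of the 11 were lower in SH-air than in WKY-air, with the lowest p for Myl7, Dkk3, Myl4 and Pam, and in WKY-DE only Pam was. The atrial markers did not all fall together, since 7 of the 11 differences were below 0 in SH-air and 7 in WKY-DE. The others were above 0. The summed signal of 10 fibroblast markers was also highest for WKY-air, at 29398 to 37294, against 21925 to 28479 for WKY-DE, 18700 to 22322 for SH-air and 22609 to 24989 for SH-DE. By limma 6 of the 10 fibroblast markers were lower in SH-air than in WKY-air, with the lowest p for Pdgfra, Lum, Mfap5 and Col3a1, and in WKY-DE only Col1a2 was. The median difference of the 10 was −0.77 in SH-air and −0.47 in WKY-DE. Of the endothelium, smooth muscle, epicardium and leukocyte markers none was called in WKY-DE or SH-air against WKY-air by limma, and of the ventricular markers only Myh7, in SH-air. Myl7 or the fibroblast sum is taken up again beside Irx4, Tbx5 and Gata6.

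In WKY rats, DE was accompanied by lower signals of Irx4 and of the brighter Zfpm1 probe set, both dim on these arrays, while the probe sets of Gata4, Nkx2-5, Hand2 and Mef2c were not called. Both called members were lower, so that 2 of 13 member probe sets were called lower and 0 higher, against 1.88% of all probe sets called, 0.511% lower and 1.37% higher. Of the 13 differences 10 were below 0, with a median of −0.14 against 0.10 for all probe sets. The median signal of an array was 209 to 216 in WKY-DE and 178 to 192 in WKY-air. With quantile normalization the median difference over all probe sets was 0.01, so the 0.10 depends on the scaling. The groups did not overlap for 5 member probe sets, all lower in WKY-DE, where 4.27% of all probe sets did not overlap with WKY-DE lower and 8.39% with WKY-DE higher. At an unadjusted p under 0.05 lay 4 of the 13, against 20.5% of all probe sets.

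Irx4, the ventricular Iroquois homeobox factor, had signals of 66.3, 44.3, 90.9 and 39.9 in WKY-air and of 15.7, 6.80, 12.0 and 11.1 in WKY-DE. All 4 WKY-DE arrays lay below the lowest WKY-air array and below 16.1. The mean fell from 60.4 ± 23.4 (SD, n = 4) to 11.4 ± 3.65, a log2 difference of −1.44 (SE 0.28, 95% confidence interval −2.04 to −0.84, limma adjusted p = 0.0291). The size of the difference depends on the offset, since the WKY-DE signals are near the lower end of the array, and it was −2.29 with an offset of 1 and −0.72 with an offset of 62.5. In SH rats Irx4 was 44.8, 42.3, 17.3 and 18.7 with air and 68.4, 41.5, 19.4 and 31.7 with DE. The SH groups overlapped each other, and their difference of 0.25 was not called (SE 0.28, 95% confidence interval −0.35 to 0.85, limma adjusted p = 0.930). By group mean the order was WKY-air, SH-DE, SH-air at 30.8 ± 14.8 and WKY-DE, and neither WKY-air and SH-DE nor SH-DE and SH-air differed by a called amount. Nor was the strain difference in air called, at −0.71 with overlapping arrays (95% confidence interval −1.31 to −0.11, limma adjusted p = 0.202). SH-air and WKY-DE were not compared.

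The difference between the DE effects of the strains was the largest of any member for Irx4, at 1.69 on the log2 scale (SE 0.40, 95% confidence interval 0.84 to 2.54). It had an unadjusted limma p of 0.000761 but did not pass over all probe sets (limma adjusted p = 0.165), where 1 probe set of the array, 0.0063%, was called. A lower Irx4 in WKY-DE than in WKY-air was therefore called, while a difference between the strains in their response was not. Irx4, Myl7 and the fibroblast sum all had their highest group mean in WKY-air. So did the sums of the ventricular, endothelium and smooth muscle markers. The ventricular sum ran from 137035 to 190812 in WKY-air and from 108057 to 151590 in WKY-DE. In WKY-DE replicates 1 to 4 the Irx4 signals of 15.7, 6.80, 12.0 and 11.1 stood beside a Myl7 of 657, 404, 9630 and 2927. In SH-air the Irx4 signals of 44.8, 42.3, 17.3 and 18.7 stood beside a Myl7 of 33.5, 154, 33.4 and 75.0. With the atrial marker level of each array in the model the Irx4 difference was −1.48 (limma adjusted p = 0.0528), while the calls over all probe sets went from 298 to 86. The part of fibroblast, ventricular, endothelium or smooth muscle RNA in the Irx4 result was not tested.

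The 250 bases before the start of Irx4 are shown because this gene had the lowest adjusted p of the members in WKY rats. They lie at chr1:31868090-31868339 on the minus strand of GRCr8 in RefSeq, and the CG dinucleotides are in capitals. G and C make up 69.2% of them. In the 300-base window, from 250 bases before the start to 50 after, they make up 71.0%, and the median over 33469 RefSeq starts is 51.7%. A high share is not particular to Irx4. The windows of Zfpm1, Gata6, Mef2a, Nkx2-5, Tbx5 and Hand2 have 84.0%, 64.7%, 63.0%, 61.3%, 56.0% and 49.3%.
Irx4: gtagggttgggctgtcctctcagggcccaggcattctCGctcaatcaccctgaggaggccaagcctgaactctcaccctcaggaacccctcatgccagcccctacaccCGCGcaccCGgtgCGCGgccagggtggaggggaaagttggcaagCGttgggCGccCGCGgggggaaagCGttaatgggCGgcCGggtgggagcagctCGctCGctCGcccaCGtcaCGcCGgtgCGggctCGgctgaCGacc

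**Figure D1:**
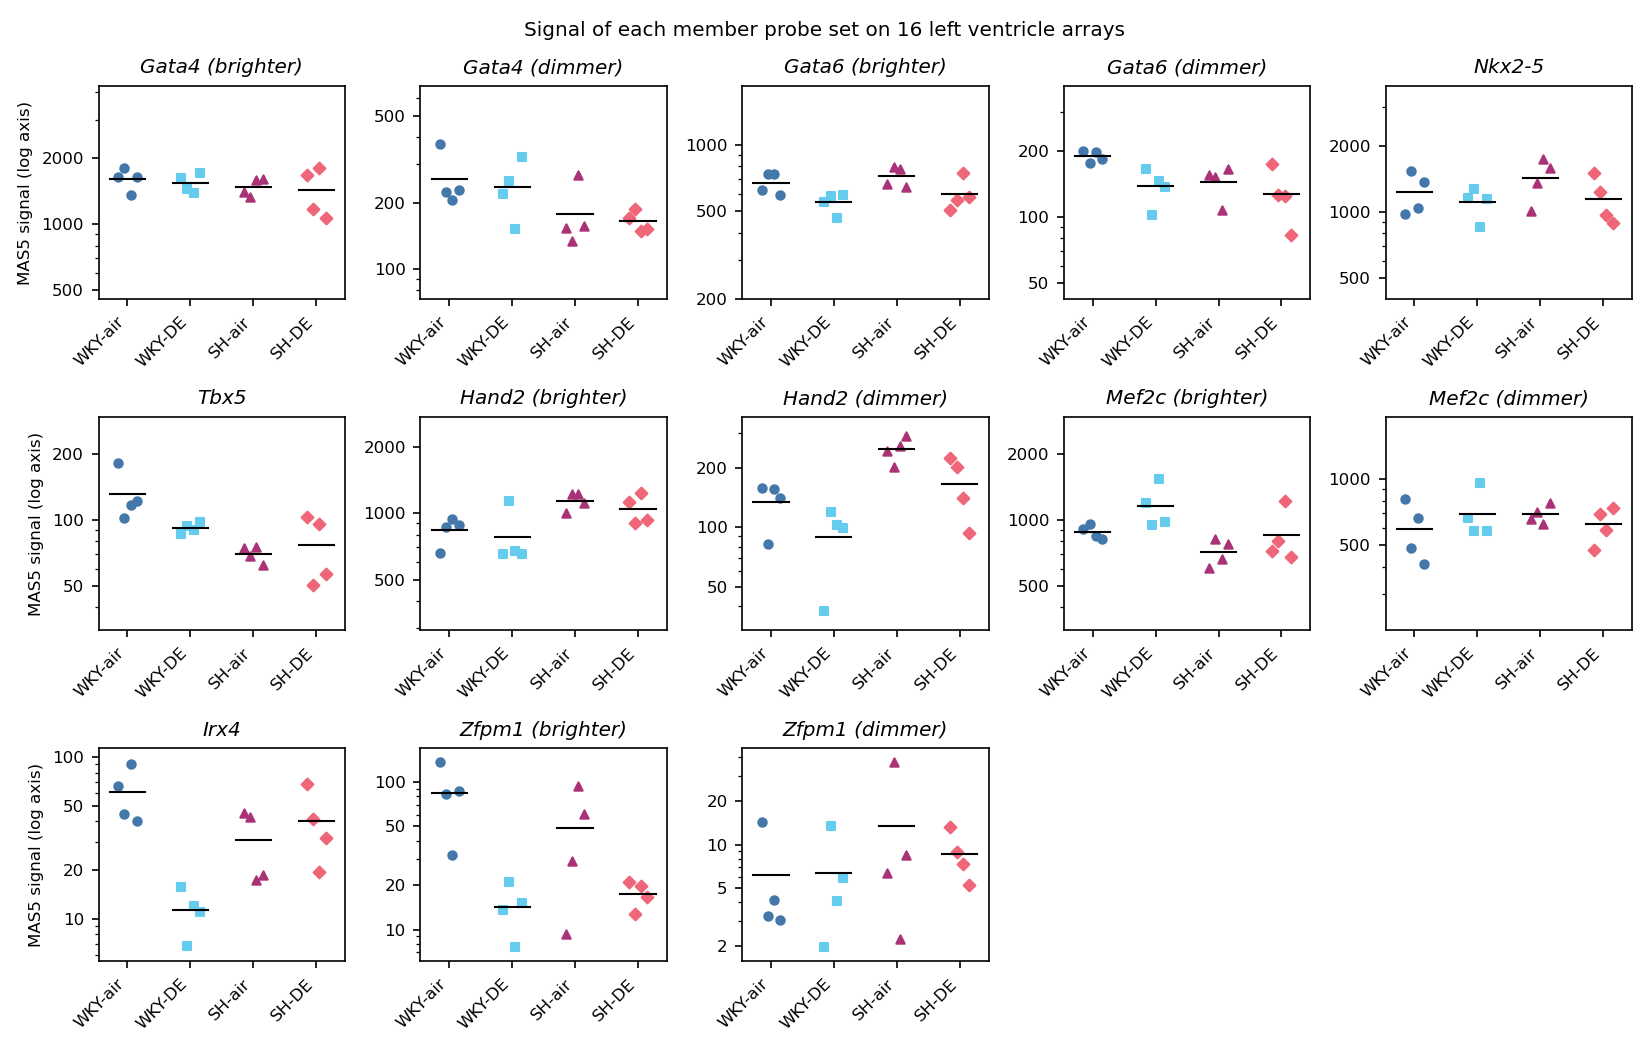
MAS5 signal (log axis) of each of the 13 member probe sets on every array of the 4 groups, with 1 point per array and a bar at each group mean. For Irx4 the 4 WKY-DE arrays, 6.80 to 15.7, lie below all arrays of the other groups, and for Tbx5 the 4 SH-air arrays, 62.3 to 75.0, lie below all WKY-air arrays.

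Zfpm1 encodes FOG-1, a GATA cofactor best known from red cell and platelet precursors and also used in the heart. Its brighter probe set had signals of 136, 83.2, 31.8 and 86.4 in WKY-air and of 13.5, 20.9, 7.61 and 15.2 in WKY-DE. Every WKY-DE array lay below every WKY-air array, and 3 of the 4 lay below 16.1. The difference was −1.63 on the log2 scale (SE 0.39, 95% confidence interval −2.46 to −0.79, limma adjusted p = 0.0488), close to the limit of the call. It was −2.39 with an offset of 1 and −0.89 with an offset of 62.5. In SH rats the same probe set was 9.37, 29.1, 94.7 and 61.0 with air and 21.1, 12.9, 19.6 and 16.6 with DE. The SH-air arrays spread over the range of both WKY groups, and the SH difference of −0.74 was not called (95% confidence interval −1.58 to 0.09, limma adjusted p = 0.839). The DE effects of the strains differed by 0.89 (95% confidence interval −0.29 to 2.07, limma adjusted p = 0.541), so no difference in response was shown for Zfpm1.

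The dimmer Zfpm1 probe set did not show the decrease, with signals of 3.01 to 14.4 in WKY-air and 1.96 to 13.5 in WKY-DE (log2 difference 0.01, limma adjusted p = 0.984). All 8 of these arrays lay below 16.1, where signals are damped most. The erythroid and platelet markers, 5 of 8 on the array and typical of cells in which Zfpm1 is active, summed to 12308 to 22433 in WKY-air and 13209 to 15913 in WKY-DE, and their part in the Zfpm1 result was not tested.

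Among the GATA factors themselves, Gata6, a zinc-finger activator that overlaps in function with Gata4, had lower signals in WKY-DE by both probe sets without being called. The brighter was 627, 738, 742 and 594 in WKY-air and 553, 586, 465 and 591 in WKY-DE. The dimmer was 200.1, 176, 197 and 184 in WKY-air and 166, 102, 146 and 137 in WKY-DE. Neither probe set overlapped between the groups, nor did the fibroblast sum, whose part in the Gata6 values was not tested. The differences were −0.29 (95% confidence interval −0.59 to 0.00, limma adjusted p = 0.250) and −0.43 (95% confidence interval −0.83 to −0.03, limma adjusted p = 0.212). In SH rats the brighter was 721 ± 75.7 (SD, n = 4) with air and 599 ± 102 with DE. The dimmer was 145 ± 25.2 and 127 ± 37.3. These DE differences of −0.27 and −0.19 were not called (limma adjusted p = 0.823 and 0.912). The strain by exposure interactions were 0.02 and 0.24 (limma adjusted p = 0.979 and 0.749). The brighter was highest by group mean in SH-air, where the fibroblast sum was 18700 to 22322. The dimmer had no overlap between SH-DE and WKY-air, at a difference of −0.56 (limma adjusted p = 0.143).

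Gata4, the zinc-finger factor that drives natriuretic peptide and myosin genes, was not called in any comparison. Its brighter probe set was 1612 ± 190 (SD, n = 4) for WKY-air, 1547 ± 154 for WKY-DE, 1484 ± 137 for SH-air and 1430 ± 366 for SH-DE. Its WKY-DE difference of −0.06 had a 95% confidence interval of −0.41 to 0.30, and the interval of the strain difference ran from −0.47 to 0.24. The dimmer probe set was 257 ± 76.2, 236 ± 70.9, 178 ± 60.2 and 165 ± 18.4 in the same order. Here SH-air lay −0.50 from WKY-air on the log2 scale (95% confidence interval −1.01 to 0.01, limma adjusted p = 0.294), with overlapping arrays.

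Nkx2-5, the homeobox partner of GATA4, was 1234 ± 268 (SD, n = 4) for WKY-air, 1108 ± 177 for WKY-DE, 1429 ± 320 for SH-air and 1151 ± 282 for SH-DE. All groups overlapped, and the DE difference was −0.14 in WKY (95% confidence interval −0.60 to 0.31) and −0.31 in SH rats (95% confidence interval −0.77 to 0.15). Mef2c, the MADS-box factor of muscle genes, had its highest group mean in WKY-DE by the brighter probe set. By the dimmer, WKY-DE and SH-air were close, at 696 and 692. Its brighter probe set was 882 ± 64.7 for WKY-air, 1163 ± 267 for WKY-DE, 715 ± 97.7 for SH-air and 855 ± 252 for SH-DE. The WKY-DE difference of 0.37 was not called (95% confidence interval −0.04 to 0.77, limma adjusted p = 0.292). Its dimmer probe set lay between 410 and 960 on all 16 arrays with no called difference.

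Without DE, the strains differed in Tbx5, which was lower in SH rats, while Hand2 was higher in every SH-air array than in any WKY-air array without being called. Between SH-air and WKY-air 1 of 13 member probe sets was called lower and 0 higher, against 3.15% of all probe sets called, 1.79% lower and 1.36% higher. Of the 13 differences 7 were below 0, with a median of −0.11 against 0.02 for all probe sets. The groups did not overlap for 3 probe sets that were lower in SH-air, that of Tbx5, the dimmer of Gata6 and the brighter of Mef2c. Nor did they for the 2 of Hand2, which were higher, where 5.66% of all probe sets did not overlap in each direction. The brighter Gata6 and the dimmer Mef2c probe sets overlapped and had the other sign, at 0.09 and 0.26. Irx4 and the brighter Zfpm1 probe set lay at −0.71 and −0.73, overlapping and not called (limma adjusted p = 0.202 and 0.355). The dimmer Zfpm1 probe set had the other sign, at 0.31. This comparison and that of WKY-DE share the WKY-air arrays, so the values of a member in both are not independent.

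Tbx5 had signals of 182, 102, 118 and 123 for WKY-air, 86.6, 93.8, 89.8 and 98.3 for WKY-DE, 74.4, 68.7, 75.0 and 62.3 for SH-air and 103, 50.9, 95.8 and 56.8 for SH-DE. Every SH-air and every WKY-DE array lay below every WKY-air array, while the SH-DE arrays split into a pair above and a pair below all SH-air arrays. The strain difference was −0.75 (SE 0.19, 95% confidence interval −1.16 to −0.34, limma adjusted p = 0.0492), just within the limit of the call. The WKY-DE difference of −0.42 was not called (95% confidence interval −0.83 to −0.01, limma adjusted p = 0.235), nor was that of SH-DE against WKY-air at −0.68 (limma adjusted p = 0.0850). DE made a difference of 0.06 in SH rats (95% confidence interval −0.35 to 0.47), and the DE effects of the strains differed by 0.48 (95% confidence interval −0.10 to 1.06, limma adjusted p = 0.495).

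Tbx5, Myl7 and the fibroblast sum all had their highest group mean in WKY-air, as did the sums of the ventricular, endothelium and smooth muscle markers. WKY-air replicate 1 had both the highest Tbx5, 182, and the highest Myl7, 25946, and without it the strain difference was −0.59 (limma adjusted p = 0.118). With the atrial marker level of each array in the model the strain difference was −0.54 (limma adjusted p = 0.747), and over all probe sets the calls went from 499 to 9 with it. In SH-DE replicates 1 to 4 the Tbx5 signals of 103, 50.9, 95.8 and 56.8 stood beside a Myl7 of 94.2, 1443, 7876 and 187. The part of atrial RNA in the Tbx5 difference cannot be told apart from strain, since all SH-air arrays had a Myl7 of 154 or less and all WKY-air arrays one of 4415 or more. The fibroblast sum likewise separated these groups, at 18700 to 22322 in SH-air and 29398 to 37294 in WKY-air.

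**Figure D2:**
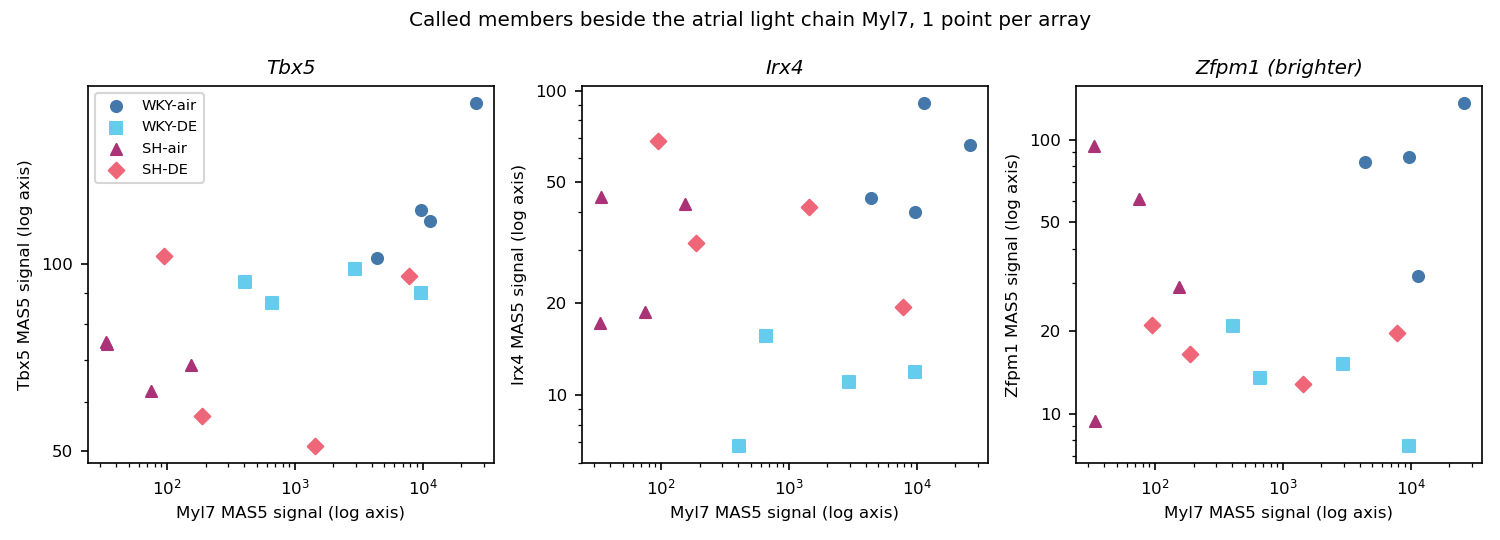
MAS5 signal of Tbx5, Irx4 and the brighter Zfpm1 probe set (vertical, log axes) against that of the atrial light chain Myl7 (horizontal, log axis), 1 point per array and 1 symbol per group. The highest Tbx5 (182) and the highest Myl7 (25946) are on the same WKY-air array, and the WKY-DE arrays have an Irx4 of 6.80 to 15.7 over a Myl7 of 404 to 9630.

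Hand2, a basic helix-loop-helix factor of ventricle and outflow tract development, had higher group means in SH than in WKY rats by both probe sets, in air and with DE, but was not called. The brighter probe set was 660, 871, 946 and 888 in WKY-air and 1007, 1229, 1220 and 1118 in SH-air. The dimmer was 158, 82.1, 156 and 141 in WKY-air and 243, 202, 256 and 288 in SH-air. No SH-air array lay within the WKY-air range for either. The differences were 0.44 (95% confidence interval 0.05 to 0.83, limma adjusted p = 0.219) and 0.83 (95% confidence interval 0.19 to 1.48, limma adjusted p = 0.161). Between SH-DE and WKY-DE they were 0.45 and 0.80 (limma adjusted p = 0.308 and 0.275), and there the groups overlapped. The strain by exposure interactions were 0.01 and −0.04 (95% confidence intervals −0.54 to 0.56 and −0.95 to 0.87).

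**Figure D3:**
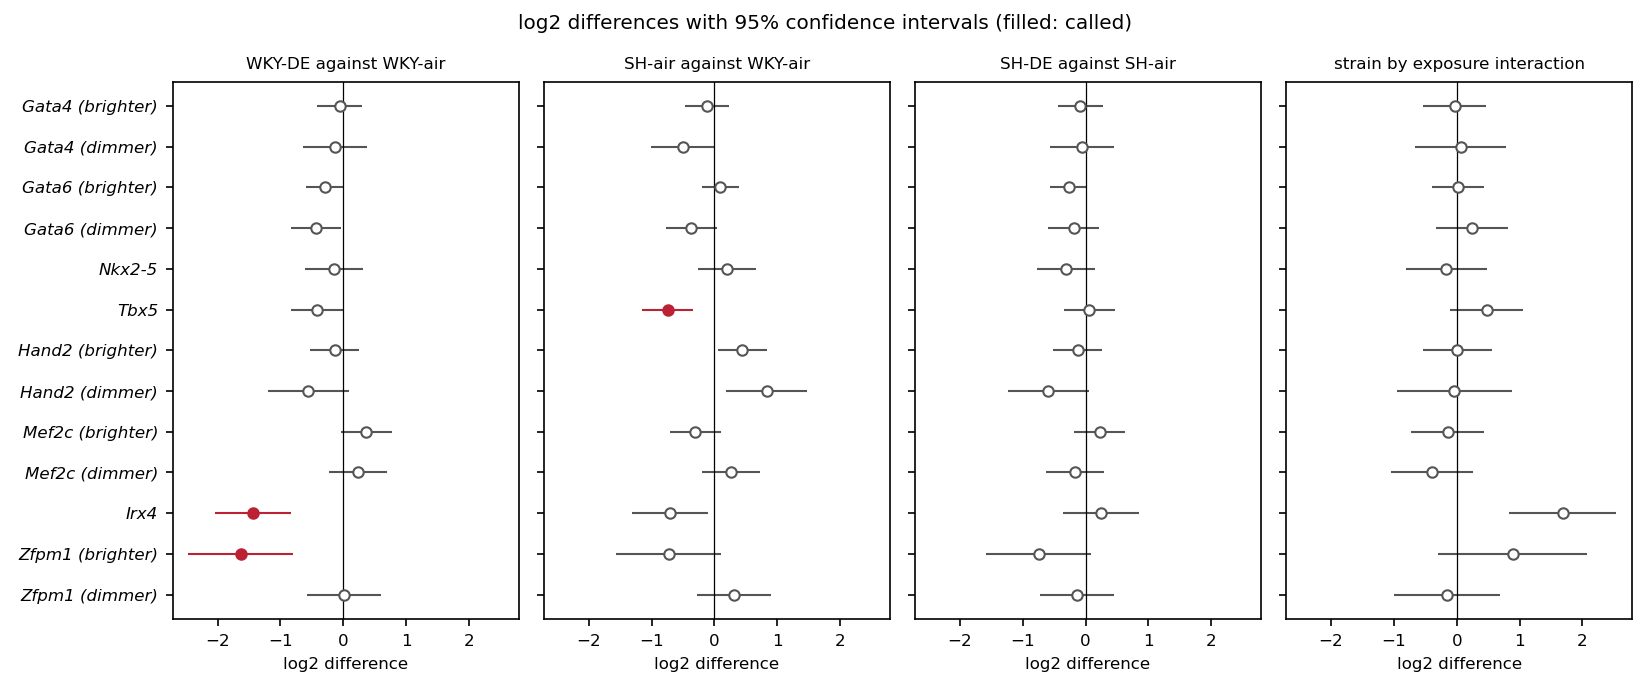
Differences on the log2 scale (horizontal) of the 13 member probe sets for WKY-DE against WKY-air, SH-air against WKY-air, SH-DE against SH-air and the strain by exposure interaction, where points are estimates, lines 95% confidence intervals and filled points called. Irx4 (−1.44) and Zfpm1 (−1.63) are called in WKY-DE and Tbx5 (−0.75) in SH-air, and no member is called in the other panels.

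In SH rats, none of the member probe sets was called for DE, and none of the 15866 probe sets was (0%). At an unadjusted p under 0.05 lay 0 of the 13 member probe sets, against 6.16% of all probe sets, and 0 had groups that did not overlap, against 2.04% of all probe sets in each direction. Of the 13 differences 10 were below 0, with a median of −0.14 against −0.00 for all probe sets and a range of −0.74 for Zfpm1 to 0.25 for Irx4. In SH-DE against WKY-air, 0 of 13 were called, against 1.94% of all probe sets (0.889% lower and 1.05% higher), and 4 had an unadjusted p under 0.05 against 17.2%. There 3 member probe sets did not overlap, all lower in SH-DE, the brighter of Zfpm1 and the dimmer of Gata4 and of Gata6. Of all probe sets 4.73% did so with SH-DE lower and 5.74% with SH-DE higher. The other probe sets of these genes overlapped. The lowest adjusted p of the members there was that of Zfpm1, with a difference of −1.47 and no overlap (limma adjusted p = 0.0716). In SH-DE against WKY-DE, 0 of 13 were called, against 0.813% of all probe sets (0.353% lower and 0.46% higher), and 4 had an unadjusted p under 0.05 against 13.3%. There only the Irx4 probe set did not overlap, higher in SH-DE, where 3.09% of all probe sets did so with SH-DE higher and 5.71% with SH-DE lower. Irx4 had the lowest p of the members in that comparison, 0.97 higher in SH-DE on the log2 scale with no overlap (unadjusted p = 0.00362, limma adjusted p = 0.144).

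The promoters of the members were searched for the sites of the factors themselves, since these factors are known to act on each other's genes. RefSeq windows of 300 bases were at hand for 7 of the 10 members, Gata6, Nkx2-5, Tbx5, Hand2, Mef2a, Irx4 and Zfpm1. Searched on both strands, a GATA site (AGATAA or TGATAA, with A or G as the last base) was in 2 of the 7 windows, against 30.3% of all windows. A T-box site (AGGTGT) was in that of Gata6 alone (13.6% of all windows), the MEF2 consensus in that of Mef2a alone (3.29%), an NKX2-5 site (TNAAGTG) in none (11.5%), and an E-box (CANNTG), the site of HAND2 and its partners, in 4 (72.1%). The matches in these windows did not overlap each other. The window of Irx4 held an E-box after the start and none of the other sites, which says nothing about factor binding outside these letters.
The 2 GATA matches are shown because they stand before Tbx5, called between the strains, and Hand2, whose strain difference did not overlap in air. Each is given with 12 bases on either side, with the site in capitals, where TTATCA and TTATCT are the opposite strands of TGATAA and AGATAA. The Tbx5 stretch is chr12:42395567-42395596 and that of Hand2 chr16:37931643-37931672, both on the minus strand of GRCr8 in RefSeq, and the first lies inside the span annotated for the gene.
Tbx5: cagacagctctcTTATCActcagagcctgt
Hand2: cccttgttttaaTTATCTtatggttatgag

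Among other genes of the network few were called. Of 29 other cardiac transcription factors 14 are on the array, and in WKY-DE 1 was called higher and 0 lower, with a median difference of 0.33 against 0.10 for all probe sets. The one called was Prox1, a homeobox factor of muscle fiber and lymphatic identity, at 809 ± 72.2 (SD, n = 4) for WKY-air and at the higher level of 1137 ± 72.7 for WKY-DE (log2 difference 0.48, limma adjusted p = 0.0498). It was lower in SH-DE than in WKY-DE, as was Mef2d, a MADS-box relative of Mef2c (log2 differences −0.62 and −1.41, limma adjusted p = 0.0212 and 0.0458). Mef2d was 816 ± 257 in WKY-DE and 288 ± 53.5 in SH-DE. In the remaining comparisons none of the 14 was called.

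GATA factors of blood cells and their partners, 7 of 9 on the array, had no called member in any of the 6 comparisons, with medians of −0.00 in WKY-DE and −0.09 in SH-air. The same held for 17 of 20 coactivators, corepressors and upstream regulators of GATA and MEF2, among them histone deacetylases and the calcineurin-driven NFAT factors, with medians of −0.07 and −0.09. Of the known target genes 23 of 25 are on the array. In WKY-DE 18 of the 23 were below 0, with a median of −0.24 against 0.10 for all probe sets. That 0.10 was 0.01 with quantile normalization, and the targets were not compared with probe sets of like brightness. Of the 23, 1 was called lower and 1 higher, against 0.511% and 1.37% of all probe sets. Acta1, skeletal α-actin, fell from 20332 ± 3261 (SD, n = 4) to 13624 ± 537 (log2 difference −0.56, limma adjusted p = 0.0498). Kcnd2, a subunit of the transient outward potassium channel, rose from 169 ± 19.2 to 311 ± 74.9 (0.79, limma adjusted p = 0.0395). The other 21 were not called.

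In SH-air 1 of the 23 targets was called, the slow myosin heavy chain Myh7, at 19401 ± 1019 (SD, n = 4) against 36972 ± 1750 in WKY-air (log2 difference −0.93, limma adjusted p = 0.0123). Myh7 was also lower in SH-DE than in WKY-air (−1.06, limma adjusted p = 0.00728). The median of the list was −0.05 in SH-air, and in SH-DE against SH-air it was −0.21, with 20 of 23 below 0 and 0 called.

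**Figure D4:**
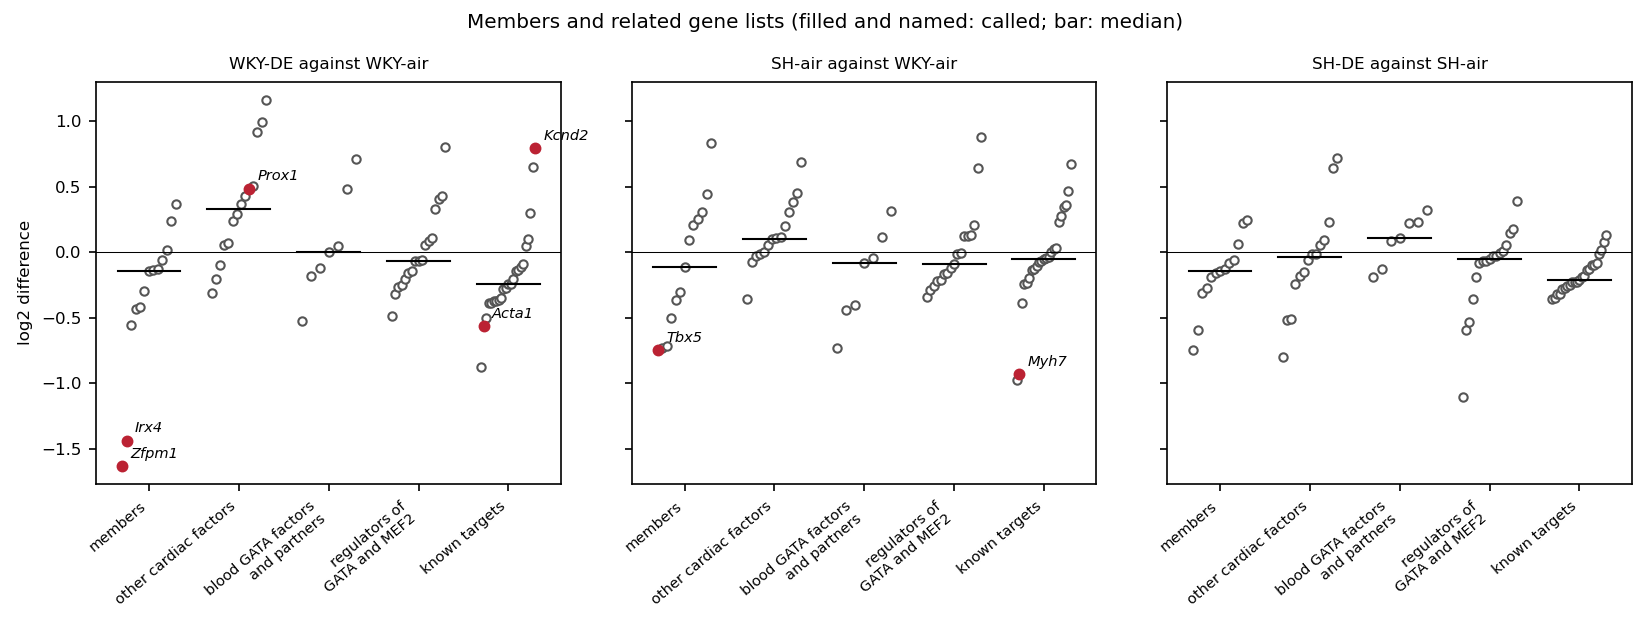
Differences on the log2 scale (vertical) of the member probe sets and of the genes of 4 related lists in WKY-DE against WKY-air, SH-air against WKY-air and SH-DE against SH-air, where each point is a probe set, bars are medians and filled, named points were called. Irx4 and Zfpm1 are the lowest points of the first panel, and no point is filled in the third.

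The signal patterns most like those of the called members were sought over the 16 arrays by Pearson correlation of log2 signal, among 12782 probe sets with 1 gene for Tbx5 and Irx4 and 12781 for Zfpm1. Tbx5 was most like Sec61a1 (0.891), Coro1c (0.885) and Stard10 (0.884). Irx4 was most like Ndn (0.852), Arf1 (0.846) and Ccn2 (0.837), and the brighter Zfpm1 probe set most like Atp6v0c (0.952), Hsp90ab1 (0.884) and Rps29 (0.869). These are the highest of many correlations over arrays that share their groups, and they are given as a description without a test.

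The calls of the 3 members lie near the limit and depend on single arrays. Of the 25 alternatives that tested them, Irx4 was called in 16 (limma adjusted p 0.0162 to 0.0925), Tbx5 in 7 (0.0304 to 0.850) and Zfpm1 in 5 (0.0289 to 0.146). Tbx5 was no longer called without any 1 of the SH-air or WKY-DE arrays or without WKY-air replicate 1, 3 or 4, and when 1 array was left out Zfpm1 was called only without WKY-air replicate 3 or SH-air replicate 1 or 3. Irx4 was no longer called without WKY-air replicate 1 (limma adjusted p = 0.0622) or without any 1 of the WKY-DE arrays, with adjusted p from 0.0508 to 0.0749. The Irx4 difference stayed between −1.26 and −1.57 when any 1 array was left out, and all 3 members kept their sign in every alternative that tested them. The 3 probe sets are among the dimmest 40% of the array, and leaving those out removed them from the test.

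**Figure D5:**
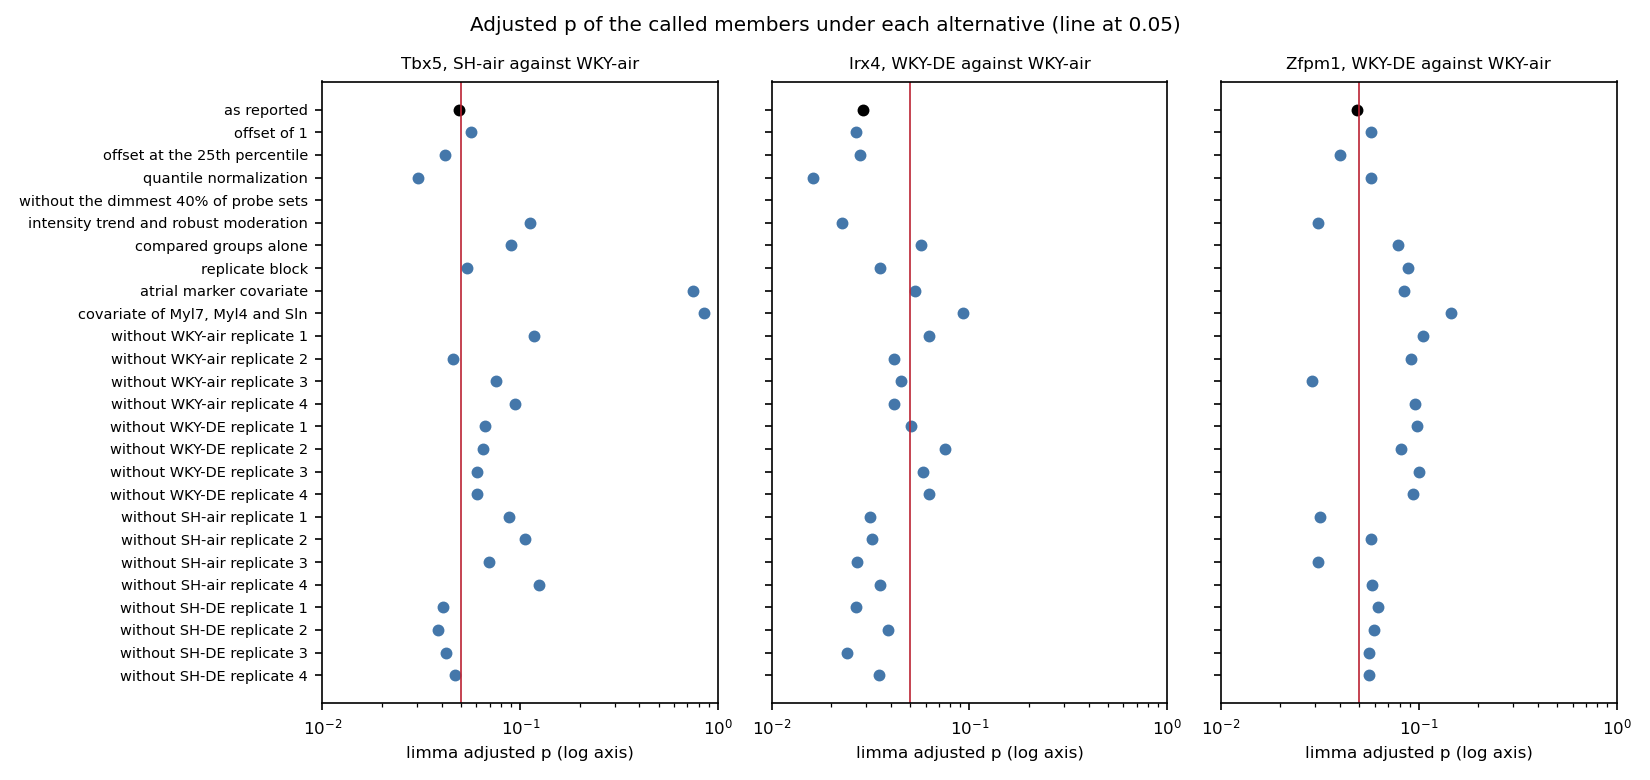
Limma adjusted p (horizontal, log axis) of Tbx5 in SH-air against WKY-air and of Irx4 and Zfpm1 in WKY-DE against WKY-air, as reported (black) and under each alternative (blue), with a line at 0.05. Irx4 lies at 0.0291 as reported and at 0.0622 without WKY-air replicate 1, and no point is drawn where a probe set was filtered out as dim.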

How the data were processed

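The deposited values are linear intensities (signals), 1 for each array and probe set. Per the labels, the authors used MAS5 to compute these intensities (version not given in the sources used here), and all arrays have the same mean after trimming 2% of values at either end, so they were scaled. The authors made their own gene lists from RMA values, which were not used here. Here 57 control probe sets of 15923 were left out, and the other 15866 were log2-transformed with an offset of 16.1, which is the 10th percentile over the table. No array had more than 12.5% of its probe sets below this offset. No further normalization or filter was applied.

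Group means were compared in 1 model of 16 arrays with limma 3.58.1 in R 4.3.3 (12 residual and 2.68 prior degrees of freedom), with Benjamini-Hochberg adjustment over 15866 probe sets. The calculation was checked on simulated data. Correlations between arrays ran from 0.933 to 0.968, and no arrays were identical. The number of arrays limits the precision.

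The members, the gene lists and the tests were chosen with earlier results of these data known, so no count over them is independent support. Symbols came from the platform annotation, updated through Entrez identifiers, and probe sets with several genes were not used. A listed gene is represented by its brightest probe set. Named were all members, the called genes of each list whose count is given (at most the 4 of lowest p per comparison), Myl7, Myl4, Myl2 and Myl3, and the 3 genes most like each called member. Lists of ventricular cardiomyocyte, endothelium, smooth muscle, epicardium and leukocyte markers were also summed per array. Promoter windows are those of RefSeq (GRCr8), and the coordinates printed are those of this build. The files name no genome build, so no coordinates are given for probe sets. Whether a strain variant lies under a probe was not examined.

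The alternatives changed the adjusted p limit to 0.01, the offset to 1 or to 62.5 (25th percentile), or the normalization to quantiles. Others dropped the dimmest 40% of probe sets, used robust moderation with an intensity trend, fitted only the compared groups, added replicate number as a block or the atrial markers (18 probe sets) as a covariate, or left out each array in turn. A covariate of Myl7, Myl4 and Sln was added after seeing the data.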

Additional observations from a re-analysis of the deposited data

Results flagged for a closer look

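Within a group of 4 arrays, 2 of the 52 sets of member values held an array far from the other 3, and chance gives such an array in about 1 of 20 groups. The brighter Hand2 probe set was 1139 in WKY-DE replicate 2, against 652 to 676 on the other WKY-DE arrays. The dimmer Zfpm1 probe set was 14.4 in WKY-air replicate 1, against 3.01 to 4.17 on the other WKY-air arrays, all below the offset of 16.1.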

How the results depend on the processing

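The count of member probe sets called in WKY-DE, 2 as reported, was 0 at an adjusted p under 0.01, without the dimmest 40% of probe sets (9 of the 13 members' probe sets were then tested), with the compared groups alone, with the atrial marker covariate and with the covariate of Myl7, Myl4 and Sln, which was chosen after seeing the data. It was 1 with an offset of 1, with quantile normalization and with the replicate block, and 0 to 2 when 1 array was left out, with 0 without WKY-air replicate 1 or any WKY-DE replicate. The count in SH-air, 1 as reported, was 0 under the same settings except quantile normalization, and also with the intensity trend and robust moderation and with the replicate block, and 0 to 1 when 1 array was left out. In SH-DE against WKY-air, 0 as reported, it was 1 with the intensity trend and robust moderation and 0 to 1 when 1 array was left out. The other counts stayed at 0.

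With the replicate block the adjusted p was 0.0351 for Irx4, 0.0880 for Zfpm1 and 0.0538 for Tbx5 (limma). Deviations of same-numbered arrays from their group means correlated at −0.10 to 0.05, so the numbers do not pair the arrays. Over all probe sets, 298 were called in WKY-DE as reported, 91 with quantile normalization, 113 with the replicate block, 86 with the atrial marker covariate and 667 with the intensity trend. In SH-air 499 were called as reported, 315 with the replicate block, 9 with the atrial marker covariate and 752 with the intensity trend. The cause of these differences was not tested. No detection call was used, and signals under 16.1 are near the lower end of the array.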
